A study of Caenorhabditis elegans with 2 samples.

Results

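The regions described here are 914 stretches of autosomal DNA that ranked high for NHR-76 chromatin immunoprecipitation (ChIP) signal and lay in front of genes read in a single direction. They were chosen from 30000 listed regions by pooled signal and by position. The 5000 regions with the highest pooled signal were taken, those touching a tRNA, snoRNA or snRNA gene were dropped, and an autosomal region was kept when its summit lay 0 to 1 kb upstream of a protein-coding 5' end on one strand and of none on the other. The 914 made up 18.3% of the 5000, beside 220 autosomal regions between divergent promoters, 2737 other autosomal regions, 177 one-sided, 10 divergent and 708 other regions on the X chromosome, and 234 at the RNA genes. The study recorded where NHR-76 sits in the genome of the nematode Caenorhabditis elegans, using whole worms at L1, the first larval stage. Both libraries came from strain OP203, whose genotype the labels give as unc-119(ed3) III with the insertion wgIs203, a transgenic line that makes NHR-76 carrying GFP and FLAG at its C-terminus. The labels name nhr-76 as the antibody and do not say whether the tag or the receptor itself was precipitated. Animals of both sexes were pooled and the chromatin was sheared by sonication. The libraries are biological replicates 1 and 2 of 1 group, from separate biosamples, with nothing said of separate cultures, so the spread between them may be partly technical. The data come from 1 line, and the labels do not say from which promoter or in which cells the tagged protein is made. A ChIP from animals without the tag was not analysed here, so signal that any immunoprecipitation would give at these sites cannot be told apart from NHR-76 binding. How many reads stand behind each library is unknown, and region lists hold no expression values with which to check the labelled stage.

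Nuclear hormone receptors are transcription factors with a zinc-finger DNA-binding domain and, in most members, a ligand-binding domain, and the family is much expanded in nematodes. They typically contact short half-sites related to the bases AGGTCA, alone or in pairs. NHR-76 is known from C. elegans as a receptor through which serotonin drives fat loss in the intestine. Genes in the compact worm genome often lie close together. Where neighbours point away from each other they share 1 stretch of promoter DNA, whereas a one-sided promoter serves a gene or operon on a single strand, often behind the 3' end of a neighbour that points the same way.

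The DNA under 10 of the strongest regions is shown because the base composition, the motifs and the short words described further on can be read from it. These are the 10 strongest on chromosomes II to V whose 151 bp around the summit hold no annotated exon. Each runs 5' to 3' on the strand of the gene, read from the RefSeq assembly WBcel235, which is ce11, with the summit at its middle. Capitals mark the 9 motifs and 12 words of 8 bases defined below, on either strand.
sec-61.G, chrV:10897310-10897460, minus strand: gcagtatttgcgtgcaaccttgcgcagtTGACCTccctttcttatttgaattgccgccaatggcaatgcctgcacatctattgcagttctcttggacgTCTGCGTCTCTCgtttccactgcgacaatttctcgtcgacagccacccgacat
rpl-3, chrIII:3867503-3867653, plus strand: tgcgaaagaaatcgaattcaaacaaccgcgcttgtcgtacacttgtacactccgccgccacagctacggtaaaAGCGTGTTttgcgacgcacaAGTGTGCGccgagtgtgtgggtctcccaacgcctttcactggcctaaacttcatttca
his-37, chrV:9546951-9547101, plus strand: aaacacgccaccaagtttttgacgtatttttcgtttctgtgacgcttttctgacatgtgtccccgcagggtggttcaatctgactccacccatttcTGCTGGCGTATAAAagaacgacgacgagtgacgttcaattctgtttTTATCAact
sqd-1, chrIV:6323772-6323922, plus strand: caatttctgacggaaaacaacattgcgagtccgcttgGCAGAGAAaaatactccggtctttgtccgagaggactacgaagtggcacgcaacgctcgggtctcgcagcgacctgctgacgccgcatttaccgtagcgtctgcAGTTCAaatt
cdc-48.1, chrII:10563523-10563673, minus strand: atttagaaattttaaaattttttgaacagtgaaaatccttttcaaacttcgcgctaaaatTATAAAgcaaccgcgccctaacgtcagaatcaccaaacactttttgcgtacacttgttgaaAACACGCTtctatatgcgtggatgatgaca
cpf-2, chrIII:13268926-13269076, minus strand: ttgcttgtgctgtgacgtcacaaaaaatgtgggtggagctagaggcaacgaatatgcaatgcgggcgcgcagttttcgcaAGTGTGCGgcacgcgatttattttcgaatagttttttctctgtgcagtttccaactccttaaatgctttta
tos-1, chrV:9344240-9344390, minus strand: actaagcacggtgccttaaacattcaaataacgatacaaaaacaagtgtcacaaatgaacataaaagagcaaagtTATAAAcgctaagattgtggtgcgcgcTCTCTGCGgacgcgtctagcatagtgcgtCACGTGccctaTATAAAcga
rpl-35, chrIII:7854621-7854771, plus strand: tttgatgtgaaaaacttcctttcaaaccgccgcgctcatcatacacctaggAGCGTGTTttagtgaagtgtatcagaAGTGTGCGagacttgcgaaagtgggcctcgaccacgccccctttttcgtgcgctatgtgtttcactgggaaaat
C47E8.4, chrV:14685706-14685856, minus strand: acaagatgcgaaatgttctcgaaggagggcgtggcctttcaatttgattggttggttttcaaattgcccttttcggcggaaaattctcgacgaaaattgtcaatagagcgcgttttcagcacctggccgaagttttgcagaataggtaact
eelo-2, chrIV:17249815-17249965, plus strand: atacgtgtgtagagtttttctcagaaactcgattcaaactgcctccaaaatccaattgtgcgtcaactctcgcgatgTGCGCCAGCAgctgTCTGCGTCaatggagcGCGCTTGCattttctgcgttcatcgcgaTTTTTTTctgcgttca
The windows of rpl-3 and rpl-35, both for proteins of the large ribosomal subunit, hold the same pair of words, AACACGCT (as AGCGTGTT) and AGTGTGCG, in the same order and direction. The window of sec-61.G holds 4 overlapping words that run together. That of C47E8.4 holds none of the motifs or words.

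Pooled signals of the 914 regions ran from 13.98 to 86.04 in the peak caller's own units, with a median of 16.5. Most were weak in the caller's terms. A pooled q-value at or below 0.05 was given to 160 of them (17.5%), where the percentage over all 30000 regions was 2.32 and over the strongest 5000 it was 13.9. The thresholded peak list of the submitters held 62 of the 914 (6.78%), against 0.827% of all regions and 4.96% of the strongest 5000. Pooled signal chose the regions, so these counts describe them and nothing is read from the differences. The 248 regions of the thresholded list had pooled signals of 30.82 or more, while the region of rank 249 had 30.78 and was not in it. The list is thus a cut on pooled signal. A place in it does not show that the libraries agreed at that region. T07F10.3 and mrck-1 are in it with no listed region in replicate 1, and R09E12.9 with rank 23358 there. In what follows the 62 are called thresholded, the next 98 with q at or below 0.05 q-called, and the other 754 weak. The rule was also applied to the 5000 strongest regions of a single library, with that library's own q-values. Without replicate 1, 361 of 810 regions passed q at or below 0.05, and without replicate 2, 168 of 841 did. Of the 5000 strongest pooled regions, 1062 met a region with such a q-value in replicate 2 alone and 381 in replicate 1 alone. Of the 914, 203 did so in replicate 2 alone and 82 in replicate 1 alone. Median pooled signals were 36.9 in the thresholded, 25.05 in the q-called and 15.9 in the weak regions. The 220 divergent promoter regions had a median of 19.2 and a maximum of 114.6. At the rank limit, the last regions inside lay at nhr-235, srw-136 and rpi-2, with signals of 13.9849, 13.9833 and 13.9812, and the first outside at pitr-1, fbxc-15 and lev-11, with 13.9768, 13.9688 and 13.9675. The 3 inside were each listed in 1 library alone, and of the 3 outside pitr-1 and fbxc-15 were listed in both.

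To compare the libraries, each library's signal was divided by the median of its own 30000 listed regions, 6.504 in replicate 1 and 6.068 in replicate 2, and the quotients are given as multiples. The strongest regions are given by the known roles of their genes, not in order of rank. Among genes of protein synthesis, folding and secretion, the region 242 bp upstream of sec-61.G, which encodes a subunit of the Sec61 channel that passes proteins into the endoplasmic reticulum, had 5.19 times the median in replicate 1 and 8.57 times in replicate 2. A second gene on the same strand, F32D8.13, also starts within 1 kb of this summit. At rpl-3 the multiples were 3.57 and 10.2, the highest signal of the whole list of replicate 2 but rank 83 in replicate 1. At rpl-35 they were 3.38 and 6.02, again higher in replicate 2. The region at crt-1, the gene for the calcium-binding chaperone calreticulin, had 2.71 and 4.89, and that at hsp-1, the constitutive HSP70 of the cytosol, had 2.57 and 4.99. Replicate 2 was the higher at each of these 5 genes.

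Other strong regions lay at genes of RNA processing and protein turnover. At sqd-1, an RNA-binding protein related to Drosophila Squid, the region had 4.92 times the median in replicate 1 and 6.01 times in replicate 2. At cpf-2, a subunit of the factor that cleaves pre-mRNA for polyadenylation, it had 3.79 and 6.04. The region 112 bp upstream of tos-1, which is given here for its strength and not for a role in either process, had 5.11 and 4.22, higher in replicate 1. At cdc-48.1, the AAA ATPase known as p97 in mammals, it had 4.49 and 5.73, and at wwp-1, a HECT-type ubiquitin ligase, 4.37 and 4.67. The values at wwp-1 and at C47E8.4 (4.37 and 4.43) were nearly the same in both libraries.

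Among genes of signalling, chromatin and cell division, egl-30, which encodes the alpha subunit of Gq, had 5.69 times the median in replicate 1 and 7.32 times in replicate 2 over a summit 71 bp upstream of its 5' end. That summit also lay within 1 kb of C53H9.4 on the same strand, and its 151 bp window had 67.5% GC, the top of the range of the 914 regions. The Gs alpha gene gsa-1 had 2.60 and 3.46. The histone gene his-37 had 4.82 and 5.84, with its summit 79 bp upstream, and knl-3, a kinetochore protein, had 2.71 and 5.21. At pcn-1, the gene for the sliding clamp PCNA of DNA replication, the multiples were 4.14 and 2.60, so here replicate 1 was the higher. W06H8.6 had 2 of the 914 regions, 788 and 987 bp upstream. They overlap each other and take their library values, 6.00 and 4.25, from the same listed region of each library, so they count as 1 observation. The remaining regions among the 15 strongest were at eelo-2, described below, and at Y39E4B.6, with 2.96 and 4.57.

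**Figure D1:**
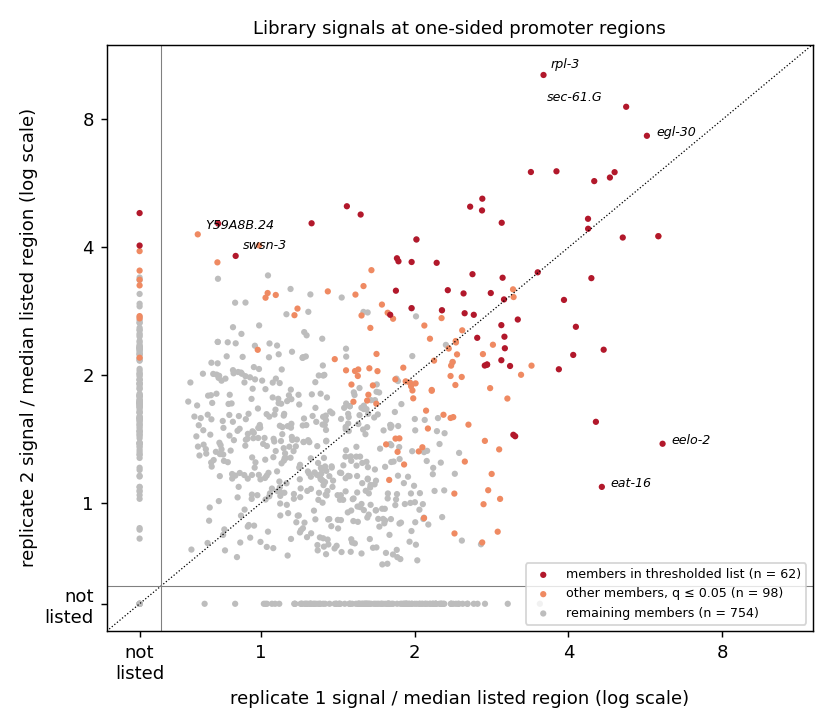
Signal of the 914 one-sided promoter regions in replicate 1 (horizontal axis) and replicate 2 (vertical axis), each divided by its library median, on log scales; 1 point is 1 region and points at the edges were not listed in that library. The thresholded regions (n = 62) spread to both sides of the dotted line of equal multiples, with rpl-3 at 3.57 and 10.2 far above it and eelo-2 at 6.11 and 1.38 far below.

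Most of the 914 regions were listed in both libraries, but few were among the strongest in both. A listed region of each library overlapped 649 of them (71.0%), 129 were met in replicate 1 alone, 130 in replicate 2 alone and 6 in neither. Of all 5000 strong regions 69.9% were met in both, and of the 3641 one-sided autosomal regions below rank 5000 21.0%. Both libraries placed 176 (19.3%) of the 914 among their own 5000 strongest, where the percentage over the strongest 5000 pooled regions was 15.4 and over all 30000 it was 2.97. The share was 31.8% of divergent promoter regions, 22.6% of one-sided regions on X and 10.8% of other autosomal regions. Library q-values at or below 0.05 in both libraries were found at 70 (7.66%), where the percentage over the strongest 5000 was 5.94 and over all regions 1.08. The reads of both libraries entered the pooled signal that chose the regions, so these shares are descriptions. Regions chosen on 1 library alone were met in both lists less often, in 47.3% without replicate 1 and 46.3% without replicate 2.

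Some strong regions rested on 1 library. Among the 160 thresholded and q-called regions, 151 were listed in both libraries, 21 were over 2-fold higher in replicate 2 and 17 over 2-fold higher in replicate 1. The 9 missing from the list of replicate 1 were at T07F10.3, mrck-1, cbp-1, col-63, fbxa-64, cox-5B, lin-36, R10E11.6 and pqn-51, and 0 were missing from that of replicate 2. A missing region is not a signal of 0, since the lowest listed signals were 4.69 in replicate 1 and 4.34 in replicate 2. The most uneven regions in favour of replicate 1 were at eelo-2 (6.11 and 1.38 times), eat-16, a regulator of G protein signalling known to oppose EGL-30 (4.65 and 1.09), citk-1 (2.91 and 0.857), R08D7.5 (2.71 and 0.809) and enee-1 (4.53 and 1.55). In favour of replicate 2 they were at Y59A8B.24 (0.754 and 4.29), R09E12.9 (0.826 and 4.55), clec-53 (0.823 and 3.69), swsn-3, a subunit of the SWI/SNF chromatin remodeller (0.894 and 3.82), and eif-3.B, a subunit of translation initiation factor eIF3 (0.993 and 4.04). In 7 of these 10 the weaker library lay below its own median listed region, while in all 10 the stronger library ranked the region among its 250 strongest. The sequences at enee-1 and R09E12.9 have a second match elsewhere in the genome, and the part of this in their uneven values was not tested.

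Within the 1 kb that the rule allowed, strong summits lay nearer to the gene. The median distance from summit to 5' end was 241.5 bp in the thresholded, 314.5 bp in the q-called and 421 bp in the weak regions, 398 bp over the 914 and 499 bp in the lower-ranked one-sided regions. The summit was within 300 bp in 41 of 62 thresholded regions (66.1%, 95% Wilson interval 53.7 to 76.7, which covers counting error only), 44 of 98 q-called (44.9%, 35.4 to 54.8) and 272 of 754 weak regions (36.1%, 32.7 to 39.6). In the lower-ranked regions it was 30.9% (29.4 to 32.4), close to an even spread over the kilobase. The last 500 bp, from 500 to 1000 bp upstream, held 9 of the 62 thresholded summits. They include those of W06H8.6 at 788 bp and ppm-2 at 975 bp. The 5' end is the outermost one of the annotated gene, and in worms trans-splicing removes the start of many transcripts, so these distances may not be measured from where transcription starts.

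**Figure D2:**
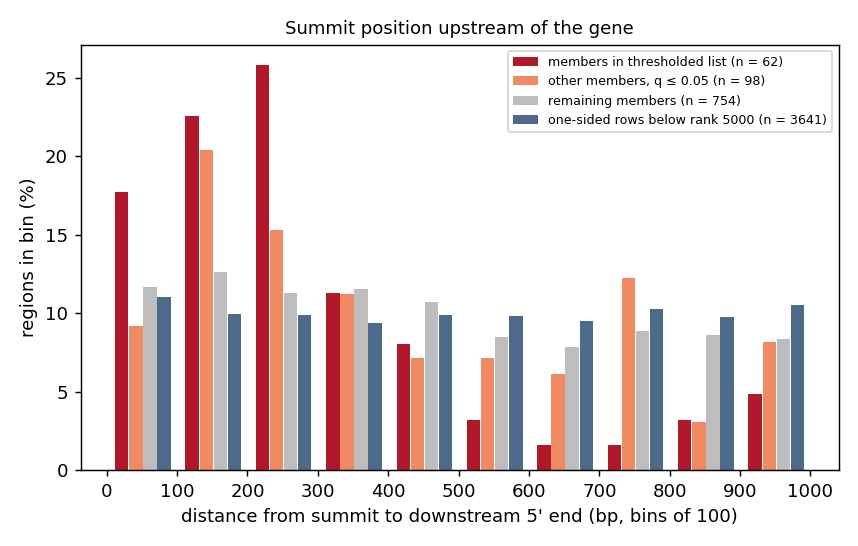
Percentage of regions (vertical axis) by distance from the summit to the downstream 5' end in bins of 100 bp (horizontal axis), for the thresholded (n = 62), q-called (n = 98) and weak regions (n = 754) and the one-sided regions below rank 5000 (n = 3641). The thresholded regions peak at 25.8% in the bin from 200 to 300 bp, while the lower-ranked regions lie between 9.39% and 11.0% in every bin.

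Most summits lay outside genes, though with the 5' ends of all transcripts in the rule the share was 49.7%. Of the 914, 549 (60.1%) were intergenic, 173 (18.9%) in a coding exon, 79 (8.64%) in an intron, 52 (5.69%) in a 3' UTR, 31 (3.39%) in a 5' UTR and 29 (3.17%) in an exon of a non-coding gene, with 1 in another exon of a protein-coding gene. The intergenic share was 72.6% of thresholded (60.4 to 82.1), 64.3% of q-called (54.4 to 73.1) and 58.5% of weak regions (54.9 to 62.0), against 57.3% of the lower-ranked ones. Coding exons held 3 of the 62 thresholded summits (4.84%), at ecps-1, ift-43 and prmt-5, a protein arginine methyltransferase. They held 15.3% of the q-called, 20.6% of the weak and 20.6% of the lower-ranked summits. Of the 173 coding-exon summits, 96 lay in a gene on the same strand as the one downstream and 77 in a gene on the opposite strand. Exons of non-coding genes held 6 of the 62 thresholded summits (9.68%), against 4.08% of q-called, 2.52% of weak and 2.55% of lower-ranked summits. Those thresholded summits were at W06H8.6, wwp-1, crt-1, dmd-7, ppm-2 and mrck-1.

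**Figure D3:**
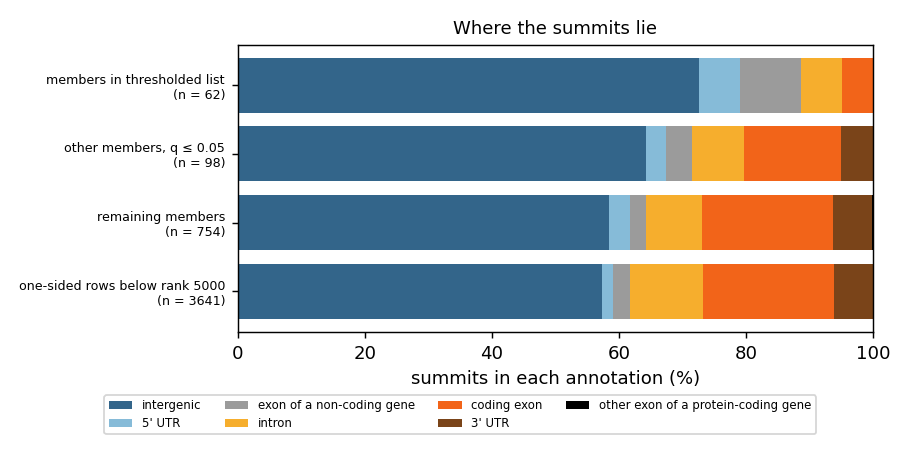
Share of summits (horizontal axis, percent) by the annotation they fall in, for the thresholded, q-called and weak regions and the one-sided regions below rank 5000. The intergenic part shrinks down the page, 72.6% at the top and 57.3% at the bottom, and the coding-exon part is 4.84% at the top and 20.6% at the bottom.

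Only protein-coding genes lying wholly behind the summit were counted as neighbours, so a gene that contained the summit was passed over. The nearest such gene pointed the same way as the gene downstream for 545 of the 914 (59.6%), and the share was 59.7% of the lower-ranked regions. In the thresholded tier it was 58.1%. An intergenic summit with that neighbour within 500 bp was found for 20 of 62 thresholded regions (32.3%). The share was 16.3% of q-called, 15.8% of weak and 13.6% of lower-ranked regions. These shares are of all regions in a tier, and the tiers also differed in how many summits were intergenic. Examples are rpl-3, 480 bp from acs-19, and egl-30, 152 bp from the ribosomal protein gene rpl-27. At 61 regions a 5' end on the opposite strand lay between 1 and 1.5 kb away, just past the limit that defines one-sidedness. The sec-61.G region is one, with F32D8.7 starting 1050 bp away, and gsa-1 another, with vps-4 at 1364 bp.

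Base composition moved with strength. The median GC content of the 151 bp window was 46.7% in the thresholded, 44.4% in the q-called and 38.4% in the weak regions, 39.7% over the 914, and 35.8% in the lower-ranked regions. At least 45% GC was found in 35 of the 62 thresholded, 44 of the 98 q-called, 171 of the 754 weak and 477 of the 3641 lower-ranked windows. Strong windows were not all GC-rich. That of cdc-48.1 had 35.1%, and the thresholded range was 30.5% to 67.5%. On the strand of the gene, the thresholded windows averaged 24.4% C and 21.99% G, and the lower-ranked ones 19.3% C and 17.2% G. The part of GC content in the position, location and motif shares given here was not tested, except in the windows of at least 45% GC set apart below.

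The 9 motifs were sought on both strands, and each share is that of windows with at least 1 match. The GA repeat GAGAGA (reverse TCTCTC) was in 25.8% of thresholded, 26.5% of q-called and 16.4% of weak windows, against 10.1% of lower-ranked windows and 10.5% of windows of the same length centred 200 bp upstream of each of the 17242 autosomal protein-coding genes. The GC box GGGCGG (reverse CCGCCC) was in 8.06%, 12.2%, 4.77%, 2.99% and 3.43% in the same order, and TTTCGCG (reverse CGCGAAA), a word resembling E2F sites, in 8.06%, 7.14%, 3.71%, 1.98% and 1.98%. TATAAA (reverse TTTATA), the TATA box, ran the other way, with 8.06% of thresholded, 7.14% of q-called and 12.6% of weak windows, against 16.1% of lower-ranked windows and 19.3% of promoters. It was present at his-37, cdc-48.1 and, with 2 copies on the strand of the gene, tos-1. The run TTTTTTT (reverse AAAAAAA) was in 18.1% of the 914, against 26.0% of lower-ranked windows and 33.4% of promoters. The palindrome CACGTG, an E-box, was in 4.70% of the 914, against 2.69% of lower-ranked windows and 2.46% of promoters, and the GATA-factor word TGATAA (reverse TTATCA) in 14.4%, against 14.6% and 16.4%. By tier, CACGTG was in 8.06% of thresholded, 1.02% of q-called and 4.91% of weak windows, and TGATAA in 11.3%, 7.14% and 15.6%. Neither moved steadily with strength. The shares of these 7 motifs in the 914 were nearer to those in all of the strongest 5000 regions than to those in promoters. GAGAGA was in 18.2% of the 914 against 15.5% of the 5000, GGGCGG in 5.80% against 4.66%, TTTCGCG in 4.38% against 2.80% and TATAAA in 11.7% against 10.4%. TTTTTTT was in 18.1% of the 914 against 17.3% of the 5000, CACGTG in 4.70% against 4.46% and TGATAA in 14.4% against 13.1%. GAGAGA was also in 28.2% of one-sided windows on X, 20% of divergent windows and 14.5% of other autosomal windows.

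The nuclear receptor half-sites are given in the same way. AGGTCA (reverse TGACCT) was in 39 of the 914 windows (4.27%), against 4.59% of lower-ranked windows and 4.02% of promoters, and AGTTCA (reverse TGAACT) in 91 (9.96%), against 9.34% and 11.0%. Over the strongest 5000 regions the shares were 4.70% and 9.14%. By tier, AGGTCA was in 5 of 62 thresholded windows (8.06%), sec-61.G among them, 5.10% of q-called and 3.85% of weak windows. AGTTCA was in 2 of 62 thresholded windows (3.23%), of which sqd-1 was one, 6.12% of q-called and 11.0% of weak windows. A match is only a run of letters, a missing match says nothing of whether the receptor is bound, and the sequence NHR-76 prefers was not given in the sources used here.

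**Figure D4:**
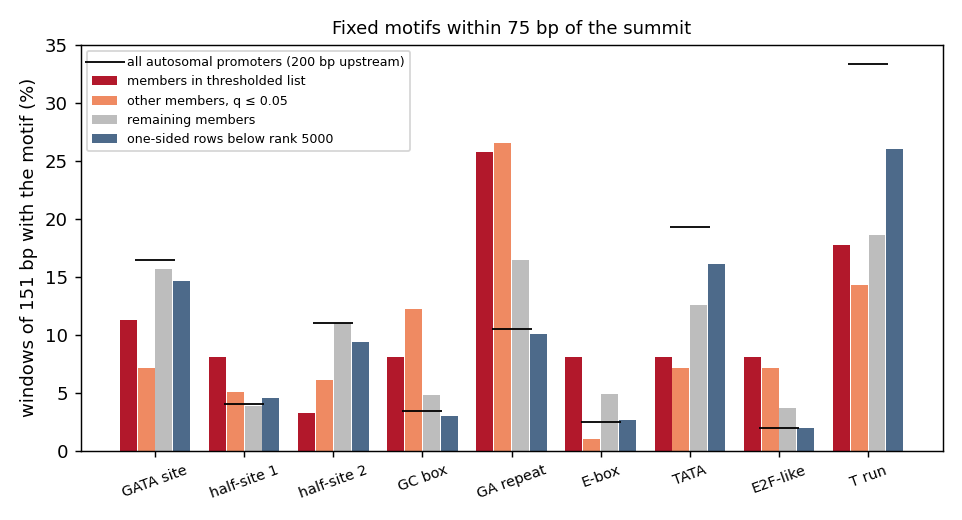
Percentage of 151 bp windows (vertical axis) that hold each of the 9 motifs on either strand, for the thresholded, q-called and weak regions and the one-sided regions below rank 5000, with black lines for windows at all autosomal promoters; half-site 1 and half-site 2 are the nuclear receptor words ending in GTCA and TTCA. The GA repeat is above its promoter line of 10.5% in the thresholded, q-called and weak tiers, and TATA is below its line of 19.3% in all 4 sets.

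Words of 8 bases were then counted in the 160 thresholded and q-called windows and set beside the other windows. The words shown are the 6 with the largest difference in share from the lower-ranked windows and the 6 with the largest ratio, among words in at least 8 of the 160. They were picked on these values, so the shares describe them and are no test. The 6 by difference were AGACGCAG, GAGACGCA, GACGCAGA, CGCAGAGA, AGAGACGC and GCAGAGAA, which overlap one another and form 1 longer run with repeated GA. They are not separate observations and can share letters with GAGAGA. AGACGCAG (reverse CTGCGTCT) was in 21 of the 160 (13.1%) and 34 of the 754 weak windows (4.51%), against 1.68% of lower-ranked windows and 1.93% of promoters. Beside the 914, it was in 6.36% of divergent promoter windows, 3.40% of other autosomal windows and 8.47% of one-sided windows on X. Among windows of at least 45% GC it was in 11 of 79 (13.9%), against 22 of 477 lower-ranked windows (4.61%). It stood in the gene's direction in 9 of the 21 and in the reverse in the others, between -71.5 and 67.5 bp from the summit, with a median of -5.5 bp, so it was spread over the window.

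Genes with AGACGCAG in the window around the summit include sec-61.G, W06H8.6, dmd-7, ift-43, ntl-11, a subunit of the CCR4-NOT complex, and ogt-1, the O-GlcNAc transferase. At dmd-7 the region had 4.69 times the median in replicate 1 and 2.30 times in replicate 2, at ntl-11 2.74 and 2.11, and at ogt-1 2.09 and 2.62. These regions sit between 145 and 788 bp upstream of their genes, so the word did not mark 1 distance. The 6 words by ratio were CTGGCGCA, GCGCCAGC and CGCCAGCA, which overlap one another, AGTGTGCG, GCAAGCGC and AACACGCT. AGTGTGCG (reverse CGCACACT) was in 9 of the 160 (5.62%) and 0.928% of weak windows, against 0.247% of lower-ranked windows and 0.447% of promoters. It was also in 1.36% of divergent, 0.402% of other autosomal and 2.82% of one-sided X windows. The 9 were at rpl-3, cpf-2, rpl-35, fbxl-2, F44E7.5, usp-4, din-1, sti-1 and citk-1. AACACGCT (reverse AGCGTGTT) was in 8 (5.0%), at rpl-3, cdc-48.1, rpl-35, cox-5A, mrpl-28, tba-2, Y39B6A.43 and C47E8.11. This word was in 10 of the 3641 lower-ranked windows, 1.36% of divergent, 0.183% of other autosomal and 0 of the one-sided X windows. Its genes include those for proteins of the ribosome, the mitochondrial ribosome and cytochrome c oxidase as well as an alpha tubulin. At least 1 of the 12 words was in 66 of the 160 windows (41.2%) and 10.1% of the weak ones, against 4.42% of lower-ranked windows and 5.24% of promoters.

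The 914 regions lay upstream of 897 of the 17242 autosomal protein-coding genes (5.20%), and 17 of them had 2 genes downstream on the same strand. Gene lists defined by symbol were read against that percentage, with no test. Of the 80 cytosolic ribosomal protein genes 22 (27.5%) had such a region, and the 23 regions had a median of 1.76 times in replicate 1 and 2.02 times in replicate 2. Of those 23, 3 were thresholded (rpl-3, rpl-35 and rpl-24.2) and 2 more q-called (rps-28, with 2.85 and 2.36 times, and rla-0, with 1.69 and 2.25). Counted over the 36 ribosomal protein genes with any one-sided region among the 30000, the 22 are 61.1%, where the same share over all genes is 21.2%. Counted that way, proteasome genes had 44.4% of 9 and histones 40% of 5. The remaining housekeeping lists then had 16.7% to 26.7%. As shares of their whole lists, the other lists of housekeeping genes were closer to the background of 5.20%. They gave 4 of 33 proteasome genes (rpn-12 with 1.67 and 1.11 times, rpt-6 with 1.41 and 0.794 and rpt-3 with 1.58 and 1.11 named), 6 of 67 translation factors and aminoacyl-tRNA synthetases, 4 of 50 genes of the secretory pathway, 3 of 41 splicing genes, 4 of 55 chaperones, 1 of 17 V-ATPase genes, 2 of 38 respiratory chain genes, 3 of 70 mitochondrial ribosomal protein genes and 2 of 54 histone genes. Of the respiratory genes, cox-5A had 4.43 and 3.39 times, and cox-5B had 2.72 times in replicate 2 and was not listed in replicate 1. At mrpl-28 the multiples were 1.47 and 5.0, and at the H3.3 histone gene his-72 they were 1.12 and 2.78, so both were led by replicate 2. When the rule was applied without replicate 1, the proteasome list had 0 genes with a region, the mitochondrial ribosomal list 6, splicing 5 and V-ATPase 2. Without replicate 2, translation factors and synthetases had 10, the respiratory chain 4, histones 1 and V-ATPase 0. Cytosolic ribosomal proteins had 17 without replicate 1 and 15 without replicate 2.

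Lists of regulators and metabolic genes lay on both sides of the 5.20%. Counted over genes with any one-sided region among the 30000, the list of G proteins and kinases had 40% of 10. The other lists of this kind then had 3.70% to 21.0%. Of 246 nuclear hormone receptor genes 17 (6.91%) had a region, with 18 regions in all, of which 0 were thresholded and 2 q-called. These were at nhr-4 (2.16 times in replicate 1 and 1.85 in replicate 2) and nhr-58 (2.83 and 1.17), and the next, at nhr-205, had 2.26 and 0.928. The region at nhr-49, a receptor that controls fat metabolism in C. elegans, was weak, with 0.867 times in replicate 2 and no listed region in replicate 1. The lipid metabolism list was taken by symbol (fat-, acs-, lipl-, acdh-, elo-, vit- and some single genes). It does not hold all genes of lipid handling, and regions at such genes outside it were not counted. Of its 59 genes 1 had a region, acs-2, an acyl-CoA synthetase of fatty acid oxidation, with 1.33 and 0.790 times. Of 106 neuropeptide and insulin-like genes 4 had one, ins-10 the strongest with 1.28 and 1.18 times, and of 45 homeobox genes named ceh 1 did, ceh-20, with 2.51 times in replicate 2 and none listed in replicate 1. Counts this small moved with the library: chosen without replicate 1 the neuropeptide list had 2 genes and without replicate 2 it had 1, and the ceh list had 2 either way. The list of cuticle collagens, taken by symbol, gave 7 of 161, among them 2 that are no collagens: dpy-30, a subunit of histone H3K4 methyltransferase complexes, and dpy-11, a thioredoxin-like protein. Its strongest, col-63, had 3.92 times in replicate 2 and was not listed in replicate 1. Of 42 genes of G proteins and kinases 4 had a region, and 3 of these were q-called or thresholded, egl-30, gsa-1 and the alpha subunit gene gpa-3 (1.52 and 1.73). That count of 4 became 10 with the 5' ends of all protein-coding transcripts and 6 without replicate 1. The 16 lists together covered 88 of the 914 regions, so most of the regions lay at genes of no list.

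**Figure D5:**
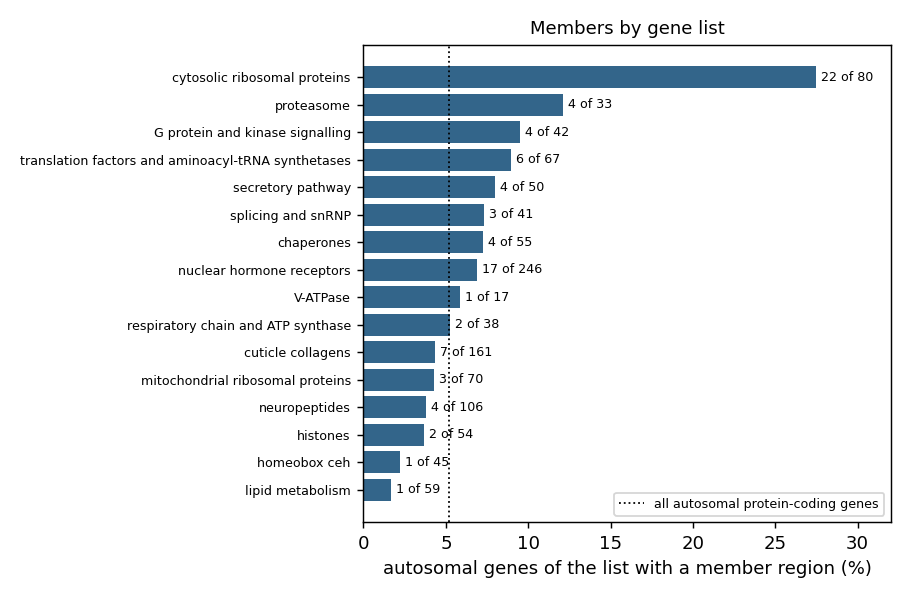
Percentage of the autosomal genes of each list (horizontal axis) that have a one-sided promoter region among the 914, with the counts beside the bars and a dotted line at 5.20% for all autosomal protein-coding genes. Cytosolic ribosomal proteins reach 27.5% and lipid metabolism, the lowest, 1.69%.

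The regions were spread over the 5 autosomes, with 159 on I, 160 on II, 201 on III, 169 on IV and 225 on V. Chromosome III had the most for its size, 14.6 per Mb and 7.61 per 100 protein-coding genes, and the other autosomes had 9.66 to 10.8 per Mb and 4.51 to 5.52 per 100 genes. Plus-strand genes had 459 and minus-strand genes 455. Of the 881 genes that were nearest to a region, 33 had 2 regions and 0 had more. Such neighbours need not be separate sites, since 26 of the 914 overlap another of them, as at W06H8.6, and eel-1 takes the same library values (2.77 and 2.12) for both of its thresholded regions. A second match of at least 50 bp at 95% identity or more was found in the genome for 31 regions (3.39%), 4 of them thresholded, and how reads with several placements were treated was not given in the sources used here. The lists deposited on the older build ce10 had a counterpart for 56 of the 62 thresholded regions. At nhr-76 itself no region met the rule. The strongest one in or near that gene had a pooled signal of 18.8 at rank 1406 and its summit 4465 bp inside from the 5' end.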

How the data were processed

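NHR-76 ChIP-seq signal was analysed as lists of regions in the narrowPeak layout. The signal of each region and the −log10 of its q-value are values deposited by the authors on the builds ce11 and ce10. The listings deposited with the libraries name a control file, pooling of reads and an irreproducible discovery rate step. Which peak caller, aligner, scaling and thresholds were used is not given in the sources used here, so signals were used for ranks and for ratios to the median of the same list. Each library's list and the pooled list held 30000 regions, of 344 bp in replicate 1, 310 bp in replicate 2 and 324 bp in the pooled list, and the thresholded list held 248.

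From these the regions were chosen as the report states, with genes of Ensembl release 115 on WBcel235, the same assembly as ce11; coordinates are 1-based. A region met a library where it overlapped a listed region by at least 1 bp, taking the strongest. Motifs, GC and words were counted within 75 bp of the summit in the RefSeq sequence, and second matches were sought with blastn 2.17.0. Python 3.11.15, numpy 2.4.6, pandas 2.3.3, scipy 1.17.1 and matplotlib 3.10.9 were used. The scripts were tested on simulated data.

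There is 1 group of 2 libraries and the regions were chosen on the pooled signal, so there was no test and values are descriptions. Intervals are 95% Wilson intervals and cover counting error only. The regions, the gene lists and the motifs were chosen with earlier results of these data known. The genes named are those of the 15 strongest regions, the 10 with the highest lower library value, the 5 most uneven each way among thresholded or q-called regions, up to 3 per list, the 3 on each side of the rank limit and nhr-76. Those named beyond this rule (crt-1, pcn-1, ppm-2, ecps-1, ift-43, prmt-5, dmd-7, ntl-11, ogt-1, rps-28, rla-0, nhr-49, eel-1, genes listed with a word and genes missing from replicate 1) were chosen after their values were seen. Alternatives were 2500 regions, a 500 bp limit, transcript 5' ends, merged regions, RNA genes kept, each replicate left out, other overlaps and windows and, added after the data had been seen, high-GC windows, regions with a second match left out and the strength tiers apart.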

Additional observations from a re-analysis of the deposited data

How the results depend on the processing

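With no test, no value had a call to lose, but 2 shares above 50% fell below it: that of intergenic summits with transcript 5' ends and that of regions met in both libraries with either replicate left out. Of the values that answer a comparison, 67 stayed near the value reported and 24 moved, and of those for single motifs and lists 143 stayed and 42 moved. Taking 2500 regions in place of 5000 gave 461 regions, of which 85.2% were met in both libraries and 33.8% were among the 5000 strongest of both, with a median distance of 345 bp, 44.5% of summits within 300 bp and a median GC of 41.7%. Limiting the rule to 500 bp on both strands gave 625 regions, 66 of them thresholded. It dropped regions farther than 500 bp and let in some with an opposite-strand 5' end more than 500 bp away. Of the 625, 24% were among the strongest of both and 65.6% lay within 300 bp, with a median distance of 232 bp. A same-strand neighbour lay behind 55.0% of them, and 73.0% were intergenic. With transcript 5' ends 49.7% were intergenic. With an overlap of at least 50%, 61.5% were met in both libraries and 15.3% were among the strongest of both. Without replicate 2, 168 of 841 regions had q at or below 0.05, and without replicate 1, 361 of 810 did. With each replicate left out in turn, 46.3% to 47.3% were met in both lists and 21.0% to 22.5% were among the strongest of both. The median distance was then 400 to 470 bp, and 34.1% to 40.6% lay within 300 bp. The median GC was 39.1% to 39.7%, and 56.7% to 58.3% were intergenic. Of the strength tiers taken alone, 72.6% of thresholded and 64.3% of q-called summits were intergenic. What caused these moves was not tested. No paired analysis was possible because there is 1 group. Depth is unknown, the 2 libraries may share technical spread, and without a control ChIP the share of signal due to NHR-76 was not measured.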

Other observations

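Regions of the thresholded and q-called tiers also lay at genes that no list covered, and some are given here by known role. They were picked after their values were seen and are given as values only. Values are multiples of each library's median listed region, replicate 1 first. How many regions of these tiers lay at genes of each role, and the share over all genes, was not counted. At genes of mitochondrial proteins, sco-1, a copper chaperone of cytochrome c oxidase, had 3.92 and 3.01, cts-1, citrate synthase, 2.02 and 4.18, ddp-1, a chaperone of the intermembrane space, 2.99 and 3.02, and tomm-20, a subunit of the import receptor, 2.51 and 1.25. These 4 summits lay 201, 289, 181 and 315 bp upstream of their genes, and replicate 1 was the higher at sco-1 and tomm-20. A second gene on the same strand, ttc-7, also starts within 1 kb of the ddp-1 summit.

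At genes of chromatin and transcription, lin-59, a histone methyltransferase related to Drosophila Ash1, had 1.26 and 4.56, mes-2, the methyltransferase of the Polycomb complex PRC2, 2.04 and 1.32, hda-2, a histone deacetylase, 1.53 and 2.05, daf-19, the RFX factor of ciliated neurons, 1.97 and 1.88, and taf-12, a subunit of TFIID, 2.09 and 0.923. The mes-2 summit lay in a coding exon 930 bp upstream and the daf-19 summit between genes 278 bp upstream. The values at daf-19 were close to each other, those at lin-59 came mostly from replicate 2 and those at taf-12 mostly from replicate 1. Among genes of the cytoskeleton and transport, tba-2, an alpha tubulin, had 2.49 and 3.12, unc-76, an axonal protein of the FEZ family, 2.42 and 2.24, and npp-8, a nuclear pore protein, 2.32 and 3.17, with similar values in both libraries at unc-76.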
